A study of Homo sapiens with 6 samples.

Results

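The 10 genes described here encode the transcription factors best known for switching cells between an epithelial and a mesenchymal state, SNAI1, SNAI2, SNAI3, TWIST1, TWIST2, ZEB1, ZEB2, GRHL2, OVOL1 and OVOL2. They were chosen by name from a table of 58051 Ensembl genes, in which each was matched by its gene identifier. Earlier results of these data were known when they were chosen. RNA-seq profiles were compared between A2780-ADR cells (3 samples), a line resistant to adriamycin (doxorubicin) that overexpresses the drug efflux pump ABCB1, and A2780 cells (3 samples), the doxorubicin-sensitive human ovarian carcinoma line it was derived from. Both lines were purchased and grown in the same medium. The paper names no treatment of the sequenced cells and does not say whether A2780-ADR cells were kept in doxorubicin. Each is 1 line, so that an effect of resistance and any other difference between the 2 lines cannot be told apart. The values are normalized read counts, that is, reads per gene divided by a factor for the depth of the sample. A gene was tested when its mean over the 6 samples was at least 10, and it was called when its limma adjusted p was under 0.05 and the lines differed by more than 2-fold.

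In the epithelial-mesenchymal transition (EMT), cells lose the junctions and keratins that hold an epithelium together and take on a motile, matrix-rich mesenchymal state. The Snail proteins (SNAI1, SNAI2 and SNAI3) and the ZEB proteins (ZEB1 and ZEB2) are zinc-finger repressors that bind a short DNA word, the E-box, in the promoters of epithelial genes such as CDH1, which encodes E-cadherin. TWIST1 and TWIST2 are basic helix-loop-helix (bHLH) proteins that bind other E-boxes as dimers with E proteins. GRHL2, OVOL1 and OVOL2 act on the opposite side, in that they keep epithelial genes on and hold ZEB1 down. The miR-200 microRNAs repress ZEB1 and ZEB2 mRNA, and the ZEB proteins in turn repress the miR-200 genes.

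Reads in genes ranged from 29653423 to 30513366 per A2780-ADR sample and from 27775745 to 29078438 per A2780 sample. No source states whether the samples of a line were separate cultures, and the p-values therefore speak only to the spread among these 6 samples, possibly a technical one. The defining markers of ovarian and Müllerian epithelium were largely absent from both lines. Of 9 such genes 8 had a mean under 10, KRT7 was at 0 in all 6 samples, and the summed level was 96.3 to 139.5 in A2780-ADR samples and 63.1 to 75.4 in A2780 samples, most of it from EPCAM. For 5 blood cell markers the sums were 2.84 to 9.63 in A2780-ADR and 0 to 7.13 in A2780, PTPRC stayed near 0, and CD3E and HBB were at 0. For 4 endothelial markers they were 7.57 to 10.6 in A2780-ADR and 2.03 to 4.07 in A2780, and the part of such markers in the results was not tested. In bulk RNA, fewer cells that express a gene and less RNA per cell cannot be told apart.

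The E-box preferred by the Snail and ZEB proteins reads CACCTG on one strand and CAGGTG on the other. It was searched on both strands in promoter windows of 300 bases (250 before and 50 after a gene's start) from RefSeq (GRCh38.p14), and 7231 of all 35116 windows (20.6%) held at least 1. Windows were found for TWIST2, ZEB1 and ZEB2 among the 10 genes, and for 23 of 44 genes of epithelial junctions, polarity and the cell surface. The windows below are shown because they carry the most E-boxes among called epithelial genes (CLDN7 and CRB3, lower in A2780-ADR, and AP1M2, higher in A2780-ADR) or belong to a called repressor (ZEB1, lower in A2780-ADR, and TWIST2, higher in A2780-ADR). They were picked for their sequence after the values were seen. Capitals mark each E-box, and the sequences run 5′ to 3′ along the gene.
CLDN7 (chr17:7262429-7262728, minus strand, 5 E-boxes): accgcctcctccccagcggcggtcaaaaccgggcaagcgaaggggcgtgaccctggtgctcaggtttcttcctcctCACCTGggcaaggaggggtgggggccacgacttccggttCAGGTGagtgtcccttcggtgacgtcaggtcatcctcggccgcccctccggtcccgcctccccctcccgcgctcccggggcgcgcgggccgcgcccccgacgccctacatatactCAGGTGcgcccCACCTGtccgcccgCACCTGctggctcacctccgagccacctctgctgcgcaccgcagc
CRB3 (chr19:6464021-6464320, plus strand, 5 E-boxes): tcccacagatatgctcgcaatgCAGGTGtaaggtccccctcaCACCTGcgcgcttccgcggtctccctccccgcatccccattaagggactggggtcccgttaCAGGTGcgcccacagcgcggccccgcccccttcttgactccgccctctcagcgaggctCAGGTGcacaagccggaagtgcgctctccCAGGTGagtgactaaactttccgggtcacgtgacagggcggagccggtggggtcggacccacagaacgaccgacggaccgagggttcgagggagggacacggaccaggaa
AP1M2 (chr19:10587263-10587562, minus strand, 3 E-boxes): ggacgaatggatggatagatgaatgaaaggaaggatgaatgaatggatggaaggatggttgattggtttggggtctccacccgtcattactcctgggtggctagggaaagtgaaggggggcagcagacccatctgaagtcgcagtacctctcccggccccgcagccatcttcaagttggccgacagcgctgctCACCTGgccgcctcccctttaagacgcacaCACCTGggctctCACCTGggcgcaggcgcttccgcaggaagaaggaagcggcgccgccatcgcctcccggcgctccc
ZEB1 (chr10:31318966-31319265, plus strand, 3 E-boxes): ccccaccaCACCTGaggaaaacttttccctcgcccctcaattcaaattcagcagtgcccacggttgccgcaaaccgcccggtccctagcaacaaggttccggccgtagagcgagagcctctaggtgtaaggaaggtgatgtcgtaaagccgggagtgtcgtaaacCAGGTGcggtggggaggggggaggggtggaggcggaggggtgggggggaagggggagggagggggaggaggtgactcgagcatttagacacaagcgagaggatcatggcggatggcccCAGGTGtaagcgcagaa
TWIST2 (chr2:238847835-238848134, plus strand, 0 E-boxes): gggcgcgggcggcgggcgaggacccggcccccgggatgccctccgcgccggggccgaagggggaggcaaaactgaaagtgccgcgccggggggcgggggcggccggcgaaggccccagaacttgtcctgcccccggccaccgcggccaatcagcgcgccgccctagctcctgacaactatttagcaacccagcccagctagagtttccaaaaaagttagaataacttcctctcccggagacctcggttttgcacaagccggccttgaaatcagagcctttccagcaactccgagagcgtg

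In CLDN7 the first bases of the E-boxes lay 174, 135, 20 and 9 bases before the start and at base 6 after it, and in AP1M2 they lay 57, 27 and 15 bases before the start. In CRB3 they lay 228, 208, 147, 89 and 60 bases before the start. The ZEB1 window shown is 1 of 7 for that gene and held E-boxes 242 and 85 bases before the start and at base 34 after it. A match to these letters is a description of the sequence, not evidence of a bound site.

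Some of the microRNAs that act on ZEB1 and ZEB2 are shown because they fall into groups by their seed, bases 2 to 8 (RefSeq, GRCh38.p14). The seed pairs with the target mRNA and is given in capitals. Mature microRNAs are not measured in a library of polyadenylated RNA. Only the host transcripts of miR-200c, miR-141 and miR-205 have values below, and none was listed for miR-200a and miR-200b.
miR-200b-3p (chr1:1167160-1167181, plus strand): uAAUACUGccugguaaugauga
miR-200c-3p (chr12:6963742-6963764, plus strand): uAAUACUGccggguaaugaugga
miR-200a-3p (chr1:1167916-1167937, plus strand): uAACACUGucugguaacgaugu
miR-141-3p (chr12:6964155-6964176, plus strand): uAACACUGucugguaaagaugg
miR-205-5p (chr1:209432166-209432187, plus strand): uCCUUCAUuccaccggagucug

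miR-200b and miR-200c share the seed AAUACUG, miR-200a and miR-141 share AACACUG, and miR-205 has a seed of its own.

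To ask how the EMT factors differ between the resistant and the parental line, each of the 10 genes was compared in turn. SNAI2 and TWIST2 were higher in A2780-ADR cells, TWIST1 and ZEB1 were lower, SNAI1 and SNAI3 were not called, and ZEB2, GRHL2, OVOL1 and OVOL2 were too low to test. All 10 genes had at least 1 read in some sample, 6 passed the minimum for testing and 4 were called, 2 in each direction. Of all 17005 genes tested, 27.6% were called (13.2% higher and 14.4% lower in A2780-ADR). The adjusted p alone was under 0.05 for 5 of the 6, against 71.8% of all genes tested, and the samples of the lines did not overlap for the same 5, against 74.6% of all genes tested.

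**Figure D1:**
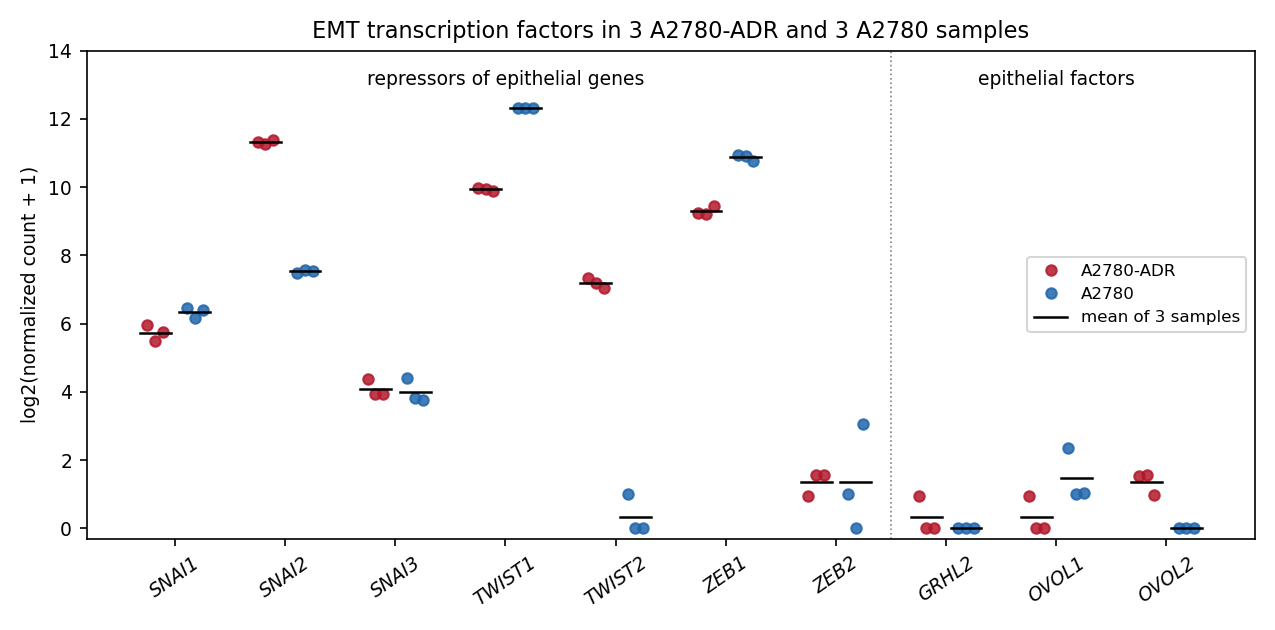
Level of each of the 10 EMT factors as log2(normalized count + 1), with A2780-ADR samples (red, left) and A2780 samples (blue, right) as points and the mean of 3 samples as a line. SNAI2 and TWIST2 sit higher in A2780-ADR, TWIST1 and ZEB1 lower, and ZEB2, GRHL2, OVOL1 and OVOL2 lie near 0 in both lines.

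SNAI2 encodes Slug, a Snail protein that represses CDH1 and marks migrating neural crest cells. Its normalized counts were 2554, 2457 and 2691 in A2780-ADR samples, against 179.1, 189.5 and 183.7 in A2780 samples. The lowest A2780-ADR sample stood far above the highest A2780 sample, and the mean of 2567 ± 118 in A2780-ADR was 13.9 times the 184 ± 5.21 in A2780 (SD, n = 3 each). The log2 fold change, A2780-ADR minus A2780, was 3.79 (SE 0.06, limma adjusted p = 4.70e-13), the 418th largest increase. The gene lies on chromosome 8 (GRCh38, 48917604 to 48921740, minus strand), and no base of its exons is shared with another gene in the annotation used.

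SNAI1, the founding member of the family and a direct repressor of CDH1, was low and moved the other way. It had 61.5, 44.3 and 52.9 normalized counts in A2780-ADR samples, against 87.5, 70.3 and 83.4 in A2780 samples. The groups did not overlap, but the change was smaller than 2-fold and was not called (log2 fold change -0.60, SE 0.18, limma adjusted p = 0.00882). The gene lies on chromosome 20 (49982999 to 49988886, plus strand).

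SNAI3, the least studied Snail gene, was expressed near the minimum for testing. Its normalized counts were 19.9, 14.5 and 14.4 in A2780-ADR samples and 20.3, 13.2 and 12.7 in A2780 samples, so that the groups overlapped throughout. The log2 fold change was 0.09 (SE 0.28, limma adjusted p = 0.793), and its sign turned when single samples were left out. SNAI3 (chromosome 16, 88677682 to 88686493, minus strand) shares 163 exon bases (9.41% of its exons) with SNAI3-AS1 on the opposite strand. That antisense transcript averaged 69.5 normalized counts over the 6 samples, against 15.8 for SNAI3. The strand setting of the counting is not given in the sources used here, so reads from the shared bases may have been assigned to either gene.

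TWIST1, a bHLH factor of mesoderm and cranial neural crest, was the most abundant EMT factor of A2780 cells and was lower in A2780-ADR cells. It had 1014, 979 and 946 normalized counts in A2780-ADR samples, against 5150, 5167 and 5134 in A2780 samples. The samples of each line lay close together and the mean was 5.26 times lower in A2780-ADR (980 ± 34) than in A2780 (5150 ± 16.5; SD, n = 3 each). The log2 fold change was -2.39 (SE 0.05, limma adjusted p = 1.29e-12), the 1071st largest decrease. TWIST1 lies on chromosome 7 (19020991 to 19117672, minus strand) and shares 6.94% of its exon bases with an antisense transcript that averaged 42.1 normalized counts, against 3065 for TWIST1.

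TWIST2, the close paralog of TWIST1, was practically silent in A2780 cells and expressed in A2780-ADR cells. Its normalized counts were 161.7, 145.5 and 129.9 in A2780-ADR samples, against 1.02, 0 and 0 in A2780 samples. These values stand for 457 reads in A2780-ADR and 1 read in A2780, a depth-corrected ratio of 425 with an exact 95% counting interval of 75.8 to 16807. The log2 fold change on the log2(normalized count + 1) scale was 6.85 (SE 0.33, limma adjusted p = 2.79e-09), the 65th largest increase, and that value depends on the pseudocount because the A2780 level is near 0. The transcripts of TWIST1 and TWIST2 share no run of 50 bases. TWIST2 lies on chromosome 2 (238848032 to 238910543, plus strand).

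ZEB1, the zinc-finger and homeodomain repressor that is the main target of the miR-200 family, was lower in A2780-ADR cells. It had 603, 598 and 699 normalized counts in A2780-ADR samples, against 1978, 1937 and 1760 in A2780 samples. No sample overlapped, and the mean was 2.99 times lower in A2780-ADR (633 ± 56.6) than in A2780 (1892 ± 116; SD, n = 3 each). The log2 fold change was -1.58 (SE 0.07, limma adjusted p = 2.10e-09), the 1566th largest decrease. ZEB1 lies on chromosome 10 (31318495 to 31529814, plus strand), and 4.23% of its exon bases are shared with its antisense neighbour ZEB1-AS1.

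ZEB1-AS1, which starts beside ZEB1 and is transcribed away from it, was not lower. It had 204, 222 and 313 normalized counts in A2780-ADR samples, against 153, 174 and 175 in A2780 samples. The groups did not overlap, and the log2 fold change of 0.53 (SE 0.15, limma adjusted p = 0.00729) was below 2-fold. SNAI3-AS1 had 82.3, 81.9 and 83.7 normalized counts in A2780-ADR samples and 64.1, 66.2 and 39.1 in A2780 samples, again a difference below 2-fold (0.58, SE 0.20, limma adjusted p = 0.0227). Neither antisense transcript was called.

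ZEB2, the second ZEB repressor, was near 0 in both lines, with 0.946, 1.93 and 1.92 normalized counts in A2780-ADR samples and 1.02, 0 and 7.39 in A2780 samples. These are 5 reads in A2780-ADR and 8 in A2780, and 1 A2780 sample held most of the A2780 reads, so no difference could be detected at this depth. ZEB2-AS1 had no read in any sample. ZEB2 lies on chromosome 2 (144364364 to 144524583, minus strand).

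The epithelial factors were practically absent from both lines. GRHL2, a grainyhead factor that activates CDH1 and other junction genes, had 1 read in all A2780-ADR samples together and 0 in A2780. OVOL1, a zinc-finger factor of differentiating epidermis, had 1 read in A2780-ADR, against 6 in A2780 (4.07, 1.02 and 1.06 normalized counts). OVOL2, its paralog and a repressor of ZEB1, had 1.89, 1.93 and 0.962 normalized counts in A2780-ADR samples and 0 in each A2780 sample, which is 5 reads against 0. OVOL2 shares 59 exon bases (2.71%) with SNX5 on the same strand, a gene that averaged 4186 normalized counts, so these few reads cannot be assigned with certainty. Without the minimum, limma called OVOL2 higher (log2 fold change 1.35, adjusted p = 0.0155), but not OVOL1 (-1.14, adjusted p = 0.105), GRHL2 (0.32, adjusted p = 0.523) or ZEB2 (-0.01, adjusted p = 0.993).

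GRHL2 lies on chromosome 8 (101492432 to 101669726, plus strand), OVOL1 on chromosome 11 (65787022 to 65797219, plus strand) and OVOL2 on chromosome 20 (17956979 to 18059188, minus strand). Values for the microRNA host transcripts and the remaining antisense transcript follow. MIR200CHG, the host of miR-200c and miR-141, had 4.73, 9.63 and 9.62 normalized counts in A2780-ADR samples and 0 in each A2780 sample. That is 25 reads against 0, a level 7.74-fold above the 3 reads that a count of 0 allows. The transcript was too low to test. MIR205HG had 1 read in each line, and OVOL1-AS1 had 1 read in A2780-ADR and 0 in A2780.

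To compare the factors with each other, counts were divided by the merged length of all annotated exons of each gene. This length can exceed that of the expressed mRNA, and the order, sums and shares below depend on it. SNAI2 stood first in A2780-ADR cells and TWIST1 stood first in A2780 cells. In A2780-ADR the order of normalized counts per kb was SNAI2 (757 ± 34.7), TWIST1 (482 ± 16.7), TWIST2 (77.6 ± 8.47), ZEB1 (73.2 ± 6.54), SNAI1 (31.4 ± 5.09) and SNAI3 (9.38 ± 1.81; SD, n = 3 for each), where the samples of the neighbours TWIST2 and ZEB1 overlapped. In A2780 it was TWIST1 (2533 ± 8.10), ZEB1 (219 ± 13.4), SNAI2 (54.3 ± 1.54), SNAI1 (47.7 ± 5.33) and SNAI3 (8.90 ± 2.47), with no overlap between neighbours. The other members averaged below 1 per kb in both lines. Among them the samples of neighbours in the order overlapped, except that OVOL2 (0.733 per kb) stood above OVOL1 (0.0819 per kb) in A2780-ADR. Members further apart in the order were not compared. TWIST2 had 0.181 per kb in A2780.

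**Figure D2:**
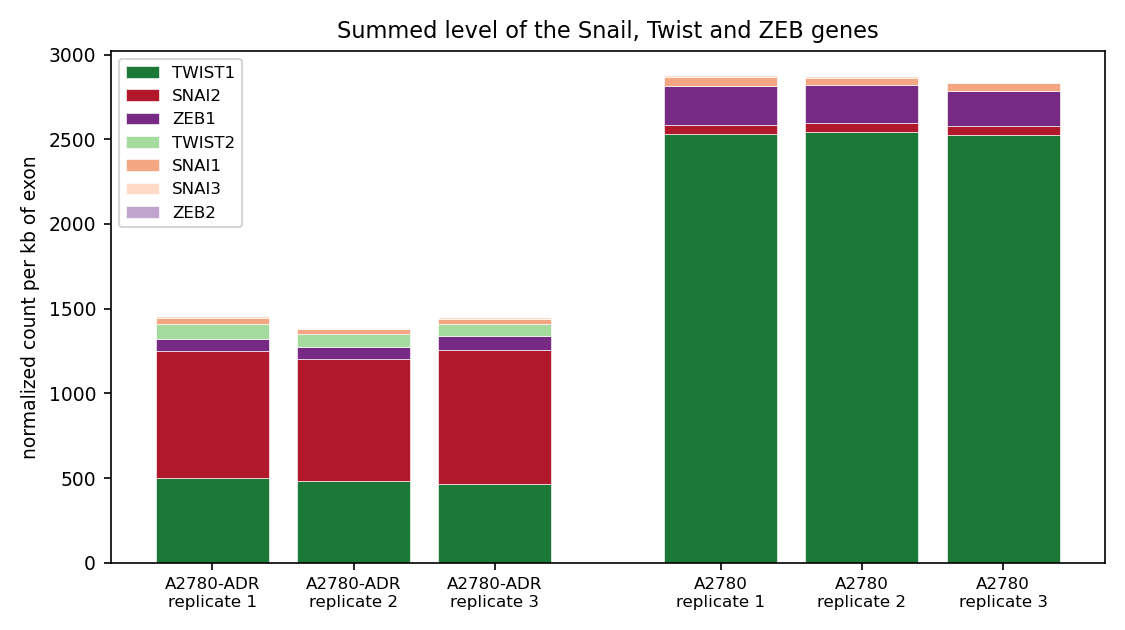
Normalized counts per kb of exon of the 7 Snail, Twist and ZEB genes, stacked by sample, with the 3 A2780-ADR samples on the left and the 3 A2780 samples on the right. TWIST1 makes up most of each A2780 bar, and SNAI2 makes up more than TWIST1 in each A2780-ADR bar, on a total of 1430 in A2780-ADR and 2863 in A2780 on average.

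Summed over the 7 repressors, the level was 1455, 1387 and 1448 normalized counts per kb in A2780-ADR samples and 2879, 2871 and 2840 in A2780 samples, 2.0 times lower in A2780-ADR. The makeup of the sum changed more than its size. SNAI2 took 52.9% ± 1.63 of it in A2780-ADR and 1.90% ± 0.0568 in A2780, TWIST1 took 33.7% ± 1.38 in A2780-ADR and 88.5% ± 0.466 in A2780, TWIST2 took 5.43% ± 0.587 in A2780-ADR and 0.00627% ± 0.0109 in A2780, and ZEB1 took 5.12% ± 0.408 in A2780-ADR and 7.64% ± 0.416 in A2780 (SD, n = 3 each). In an exact permutation test of the samples (two-sided), the summed level and each of these 4 shares gave p = 0.1, which is the smallest value that 3 samples against 3 can give.

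The families differed in how their sum and makeup changed. The Snail genes together had 798 ± 37.2 normalized counts per kb in A2780-ADR and 111 ± 5.62 in A2780, with SNAI2 at 94.9% ± 0.769 of the family in A2780-ADR and 49.1% ± 3.89 in A2780, where SNAI1 held 42.9% ± 2.86. The Twist genes had 559 ± 25.2 per kb in A2780-ADR and 2534 ± 8.09 in A2780, 4.53 times lower in A2780-ADR, and TWIST2 formed 13.8% ± 0.891 of the Twist level there, against 0.00713% ± 0.0123 in A2780. The ZEB genes had 73.3 ± 6.55 per kb in A2780-ADR and 219 ± 13.3 in A2780, nearly all of it ZEB1 (SD, n = 3 each, exact permutation p = 0.1 for each family sum). On this scale the increase of TWIST2 was far smaller than the decrease of TWIST1.

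To see which other genes follow the same pattern, the genes nearest to TWIST2 and TWIST1 in their centred log2 profile over the 6 samples were listed by Euclidean distance. The nearest to TWIST2 were BACE2, a membrane aspartyl protease (distance 0.252, log2 fold change 6.78), HSPB8, a small heat shock protein (0.492, 6.51), and TMEM173, which encodes the DNA-sensing adaptor STING (0.589, 6.65). All of these had a mean below 1 normalized count in A2780. The nearest to TWIST1 were NUP210, a nuclear pore glycoprotein (0.143, -2.32), EPOP, a partner of polycomb repressive complexes (0.150, -2.30), and MSX1, a homeobox factor of neural crest (0.153, -2.48). With 6 samples of 2 lines, nearness mostly means a log2 fold change of the same size.

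Snail and ZEB proteins silence their targets by recruiting corepressors, of which 19 were tested. This list and each later one were drawn up with earlier results of these data known. The share called in a list therefore only describes that list. LOXL2 was higher in A2780-ADR cells, RCOR1 was lower, and 17 were not called, so that 10.5% of the list was called, against 27.6% of all genes tested. The median log2 fold change of the list was -0.28, against -0.01 for all genes tested. LOXL2, a lysyl oxidase-like enzyme that binds Snail, had 3763, 3762 and 3745 normalized counts in A2780-ADR samples, against 1768, 1545 and 1523 in A2780 samples (log2 fold change 1.22, SE 0.06, limma adjusted p = 2.86e-09).

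RCOR1 encodes CoREST, which joins the histone demethylase KDM1A and the histone deacetylases HDAC1 and HDAC2 in 1 complex. It had 18.9, 20.2 and 13.5 normalized counts in A2780-ADR samples, against 2760, 2770 and 2792 in A2780 samples, a mean 158 times lower in A2780-ADR (log2 fold change -7.25, SE 0.14, limma adjusted p = 9.13e-13). The other subunits of the complex moved little. KDM1A had 8671 ± 275 in A2780-ADR and 11747 ± 318 in A2780 (SD, n = 3 each), a log2 fold change of -0.44, HDAC1 changed by -0.21 and HDAC2 by -0.28, all below 2-fold. Below 2-fold, 4 more corepressors were higher and 12 were lower in A2780-ADR with an adjusted p under 0.05.

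Among 17 tested regulators of the phosphorylation and turnover of Snail, Twist and ZEB proteins, 1 was higher, 2 were lower and 14 were not called (17.6% called, against 27.6% of all genes tested; median log2 fold change 0.12). PSMD14, a proteasomal deubiquitinase, averaged 10518 ± 232 normalized counts in A2780-ADR and 3665 ± 135 in A2780 (log2 fold change 1.52, SE 0.04, limma adjusted p = 3.28e-11). SIAH1, a ubiquitin ligase of the RING type, averaged 112 ± 11 in A2780-ADR and 225 ± 14.2 in A2780 (-1.0, SE 0.12, limma adjusted p = 9.34e-06), and SPSB3, a substrate adaptor of a ubiquitin ligase that recognises Snail, averaged 6.06 ± 0.590 in A2780-ADR and 16.1 ± 6.46 in A2780 (-1.20, SE 0.35, limma adjusted p = 0.00816; SD, n = 3 each). Both decreases lay close to the 2-fold threshold, and without A2780 replicate 2 the list had 1 gene called higher and 0 lower. SIAH1 shares 26.7% of its exon bases with LONP2 and SPSB3 shares 64.9% with EME2, each on the opposite strand and each with more reads than its partner.

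Twist proteins act as dimers with other bHLH proteins. Of 13 listed partners and ID inhibitors 11 were tested, 1 was higher, 2 were lower and 8 were lower by less than 2-fold with an adjusted p under 0.05 (27.3% called, near the 27.6% of all genes tested, of which 71.8% had an adjusted p under 0.05; median log2 fold change -0.61). TCF21, a bHLH factor of the mesenchyme of developing organs, had 68.1, 66.5 and 55.8 normalized counts in A2780-ADR samples and 0 in each A2780 sample. This was 199 reads against 0, a level 61.6-fold above the 3 reads that a count of 0 allows (fitted log2 fold change 6.01, limma adjusted p = 5.65e-09). Of the exon bases of TCF21, 30.4% are shared with TARID on the opposite strand, which averaged 94.3 normalized counts, against 31.7 for TCF21.

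HAND2, a bHLH factor of heart and limb that dimerises with TWIST1, showed the reverse pattern. It had 10.4, 7.71 and 18.3 normalized counts in A2780-ADR samples, against 526, 510 and 513 in A2780 samples (log2 fold change -5.38, SE 0.24, limma adjusted p = 1.44e-09). Of its exon bases, 24.1% are shared with HAND2-AS1 on the opposite strand, which averaged 69.6 normalized counts over all samples, against 264 for HAND2. ID4, an inhibitor that binds E proteins and keeps them from DNA, averaged 720 ± 20.2 in A2780-ADR and 2790 ± 194 in A2780 (-1.95, SE 0.06, limma adjusted p = 6.26e-11). TCF4, the E protein E2-2, averaged 517 ± 20.5 in A2780-ADR and 861 ± 18.5 in A2780 (-0.74, SE 0.06, limma adjusted p = 6.13e-07; SD, n = 3 each), below 2-fold, and the E proteins TCF3 (-0.48) and TCF12 (-0.18) differed less.

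Of 13 other transcription factors linked to mesenchymal cells, 6 were tested and 4 were called, 2 in each direction (66.7%, against 27.6% of all genes tested). The largest differences were in the paired-related homeobox genes, which act in limb and craniofacial mesenchyme. PRRX1 had 0, 0.963 and 0.962 normalized counts in A2780-ADR samples, against 1478, 1537 and 1597 in A2780 samples. Its 2 reads in A2780-ADR stand against 4475 in A2780, a ratio of 2408 with an exact 95% counting interval of 666 to 19892 (fitted log2 fold change -9.94, limma adjusted p = 1.13e-11). PRRX2 had 106.9, 90.6 and 93.4 in A2780-ADR samples, against 0, 0 and 1.06 in A2780 samples, a 282-fold ratio (exact 95% counting interval 50.3 to 11192) (fitted log2 fold change 6.26, limma adjusted p = 9.85e-09). As with TWIST1 and TWIST2, 1 paralog was lower and the other higher in A2780-ADR.

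FOXC1, a forkhead factor, averaged 241 ± 9.70 normalized counts in A2780-ADR and 76.4 ± 11.9 in A2780 (log2 fold change 1.65, SE 0.14, limma adjusted p = 3.86e-07), and SOX4, an SRY-related factor, averaged 420 ± 28.5 in A2780-ADR and 901 ± 28.5 in A2780 (-1.10, SE 0.07, limma adjusted p = 4.33e-08; SD, n = 3 each). FOXQ1, GSC, TBXT and LEF1 had no read in any sample.

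Of 17 other epithelial transcription and splicing factors 12 were too low to test. Among the 5 tested, KLF5, FOXA1 and GRHL1 were higher in A2780-ADR cells and ELF3 was lower (80% called, against 27.6% of all genes tested). KLF5, a Krüppel-like factor of proliferating epithelia, had 166, 148 and 143 normalized counts in A2780-ADR samples, against 8.14, 7.13 and 12.7 in A2780 samples (log2 fold change 3.93, SE 0.23, limma adjusted p = 1.38e-08). FOXA1, a pioneer factor of endoderm and breast epithelium, averaged 74.0 ± 5.18 in A2780-ADR and 20.3 ± 0.895 in A2780 (1.82, SE 0.18, limma adjusted p = 2.11e-06). The grainyhead factor GRHL1 averaged 85.6 ± 10.3 in A2780-ADR and 41.6 ± 6.52 in A2780 (1.03, SE 0.18, limma adjusted p = 0.00026), so that GRHL1 was expressed where GRHL2 was not. ELF3, an ETS factor of epithelia, averaged 26.5 ± 5.97 in A2780-ADR and 120 ± 4.63 in A2780 (-2.16, SE 0.19, limma adjusted p = 6.52e-07; SD, n = 3 each). The splicing regulators ESRP1 (1.91 normalized counts on average in A2780-ADR and 1.38 in A2780) and ESRP2 (11.2 in A2780-ADR and 6.16 in A2780) were below the minimum.

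**Figure D3:**
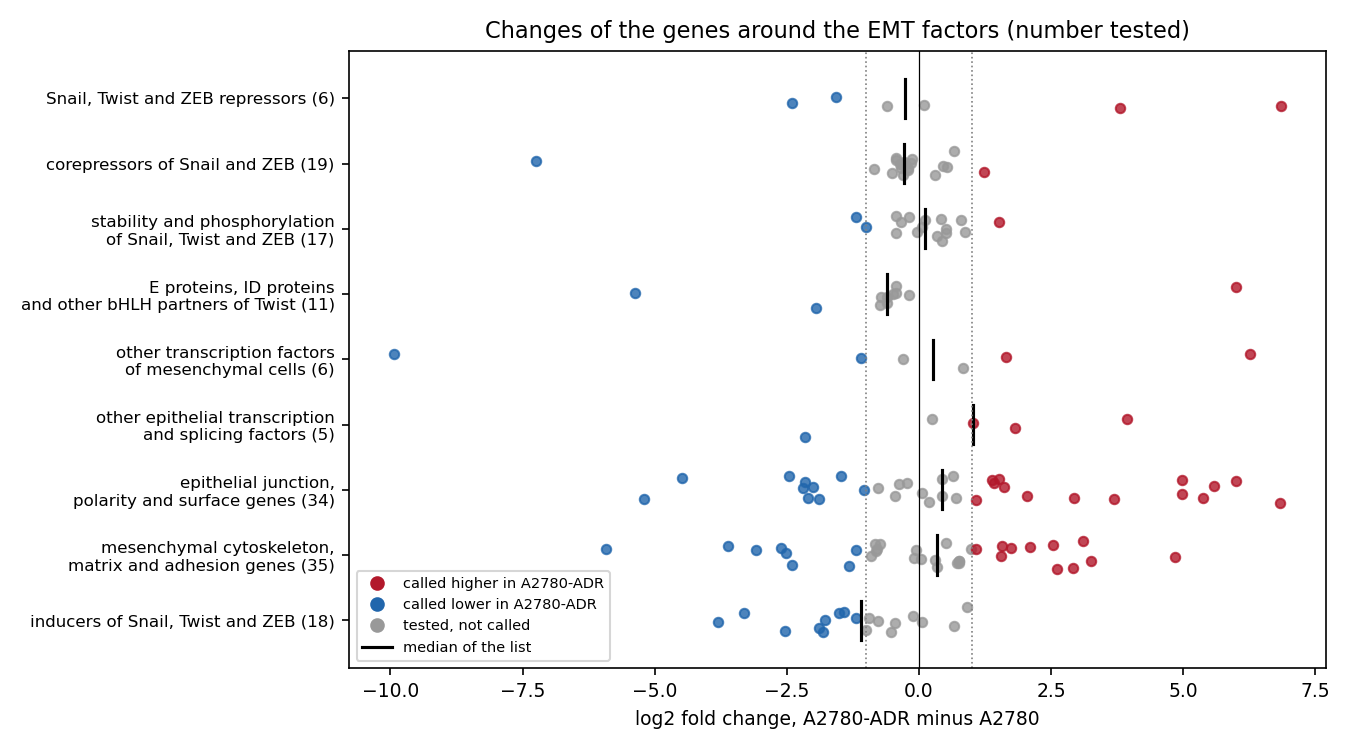
Log2 fold change (A2780-ADR minus A2780) of each tested gene in 9 gene groups, with the number tested in brackets. The Snail, Twist and ZEB genes themselves are among the groups, and the others hold genes around the EMT factors. Points are single genes, coloured by call, black bars are medians and dotted lines mark a 2-fold change. The median lies at -1.10 for the inducers, a list that also holds inhibitors of TGF-beta signalling. It lies at 0.43 and 0.33 for the epithelial junction and mesenchymal groups, which both spread widely in either direction.

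Epithelial genes, with known targets of Snail and ZEB proteins among them, were followed in a list of 44 genes of junctions, polarity and the cell surface. As the list was drawn up with earlier results of these data known, its share called only describes the list. Of 34 tested, 14 were higher, 10 were lower and 10 were not called in A2780-ADR cells (70.6% called, against 27.6% of all genes tested; median log2 fold change 0.43). CDH1 was near 0 in both lines, with 5.67, 0.963 and 5.77 normalized counts in A2780-ADR samples and 8.14, 3.06 and 3.17 in A2780 samples. At this level CDH1 was not tested, and the samples of the lines overlapped. EPCAM, an adhesion molecule of epithelia, averaged 75.3 ± 16.9 in A2780-ADR and 54.6 ± 4.87 in A2780 (SD, n = 3 each), with overlapping samples (log2 fold change 0.44, SE 0.19, limma adjusted p = 0.0577).

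KRT8, a keratin of simple epithelia, had 9415, 9388 and 8411 normalized counts in A2780-ADR samples, against 82.4, 69.3 and 85.5 in A2780 samples, 115 times higher in A2780-ADR (log2 fold change 6.83, SE 0.08, limma adjusted p = 5.01e-14). Its filament partner KRT18, named because the 2 genes adjoin, averaged 4072 ± 242 in A2780-ADR and 130 ± 18.3 in A2780 (4.97, limma adjusted p = 1.08e-12). The 2 genes share 525 exon bases on opposite strands and both have processed pseudogenes, so how their reads were divided is uncertain. EVPL (envoplakin, of the cornified envelope) averaged 618 ± 38.9 in A2780-ADR and 9.55 ± 4.73 in A2780, PKP2 (a desmosomal plakophilin) 426 ± 25.2 in A2780-ADR and 7.90 ± 0.694 in A2780, and MST1R (the RON receptor) 139 ± 10.9 in A2780-ADR and 2.74 ± 2.11 in A2780 (SD, n = 3 each). Their log2 fold changes were 6.0, 5.59 and 5.37.

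Other junction genes were lower in A2780-ADR. DSC2 (a desmosomal cadherin) averaged 1.6 ± 1.12 normalized counts in A2780-ADR and 90.5 ± 13.6 in A2780, CGN (cingulin, of tight junctions) 69.1 ± 13.9 in A2780-ADR and 1543 ± 61.0 in A2780, DSG2 (a second desmosomal cadherin) 9.56 ± 2.47 in A2780-ADR and 56.8 ± 10.2 in A2780, and TJP3 (a tight junction scaffold) 78.1 ± 6.08 in A2780-ADR and 360 ± 39.0 in A2780 (SD, n = 3 each). Their log2 fold changes were -5.21, -4.48, -2.47 and -2.19, with limma adjusted p = 3.39e-06 or smaller for each. Of the desmosomal genes named, PKP2 was higher and both cadherins were lower in A2780-ADR.

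**Figure D4:**
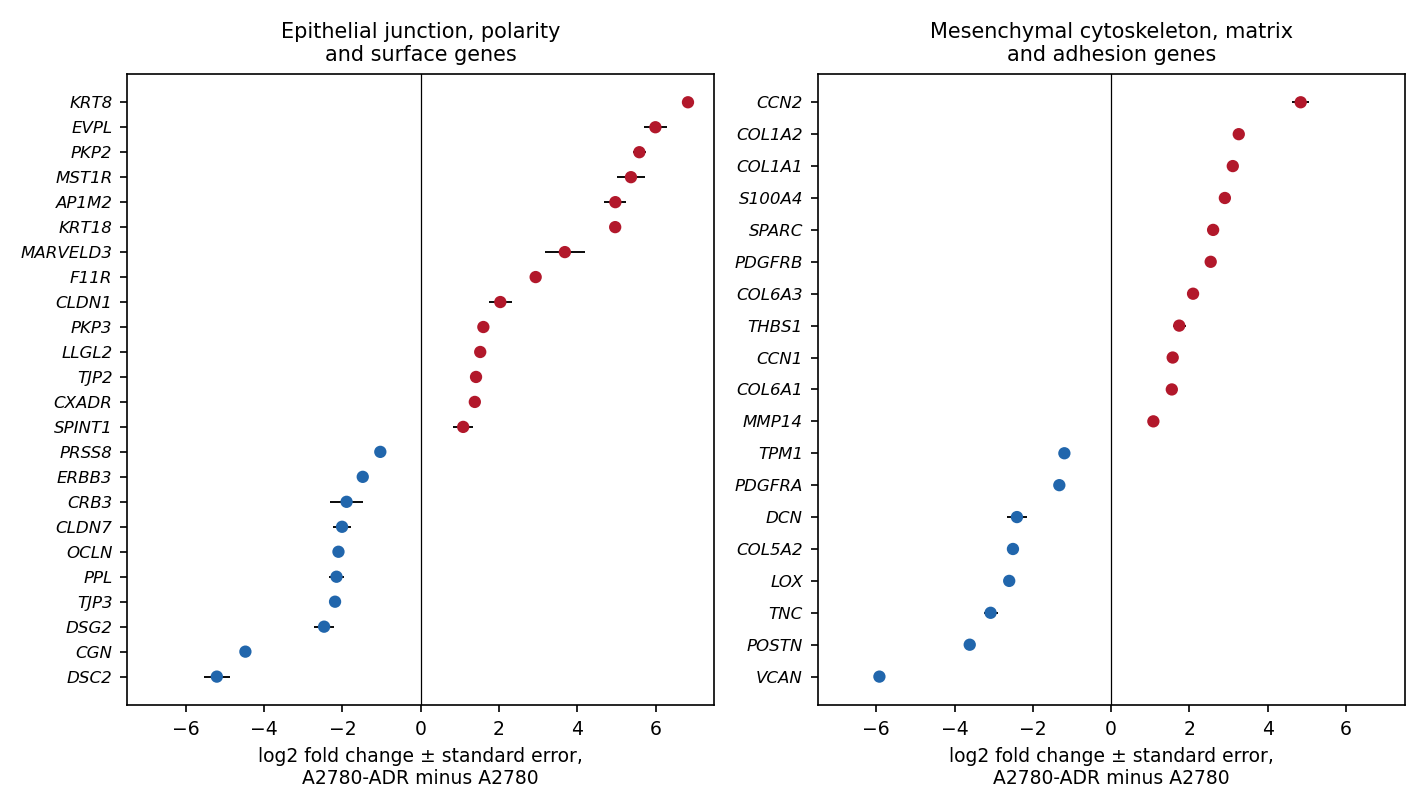
Log2 fold change (A2780-ADR minus A2780) with its standard error for each called gene of the epithelial junction list (left panel, 24 genes) and of the mesenchymal list (right panel, 19 genes). Red points are higher and blue points lower in A2780-ADR, and both lists run from a change above 4 to one below -5.

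The E-boxes shown above were then counted by list. At least 1 was present in 20 of 35 windows of the epithelial junction list (57.1%), against 20.6% of all windows, 4 of 41 windows of the mesenchymal list (9.76%), 5 of 21 of the other epithelial factors (23.8%), and 0 of 15 and 0 of 23 of the other mesenchymal factors and the bHLH partners. The epithelial list was drawn up with known targets of these repressors among its genes, so its share is a description of the list. Within it, 3 of 6 windows of genes higher in A2780-ADR held an E-box, 7 of 11 of genes lower, 6 of 11 of genes not called and 4 of 7 of genes not tested. Windows of the same gene can overlap. Counted by gene, 18 of 23 listed genes with a window held an E-box (78.3%), against 24.1% of all genes with a window. These were 3 of 5 genes higher in A2780-ADR, 6 of 7 lower, 5 of 6 not called and 4 of 5 not tested. The E-box was present at genes of either direction, as the windows of AP1M2 and CLDN7 show.

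AP1M2, a subunit of an epithelial sorting adaptor, averaged 491 ± 21.4 normalized counts in A2780-ADR and 15.9 ± 7.54 in A2780 (log2 fold change 4.97, SE 0.28, limma adjusted p = 1.08e-08). CLDN7, a tight junction claudin, averaged 12.1 ± 3.01 in A2780-ADR and 51.2 ± 5.74 in A2780 (-2.01, SE 0.24, limma adjusted p = 1.12e-05), and CRB3, an apical polarity protein, averaged 4.76 ± 3.39 in A2780-ADR and 18.2 ± 2.79 in A2780 (-1.89, SE 0.42, limma adjusted p = 0.00144; SD, n = 3 each). Of the repressors themselves, 2 of 9 windows held an E-box, both at ZEB1.

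**Figure D5:**
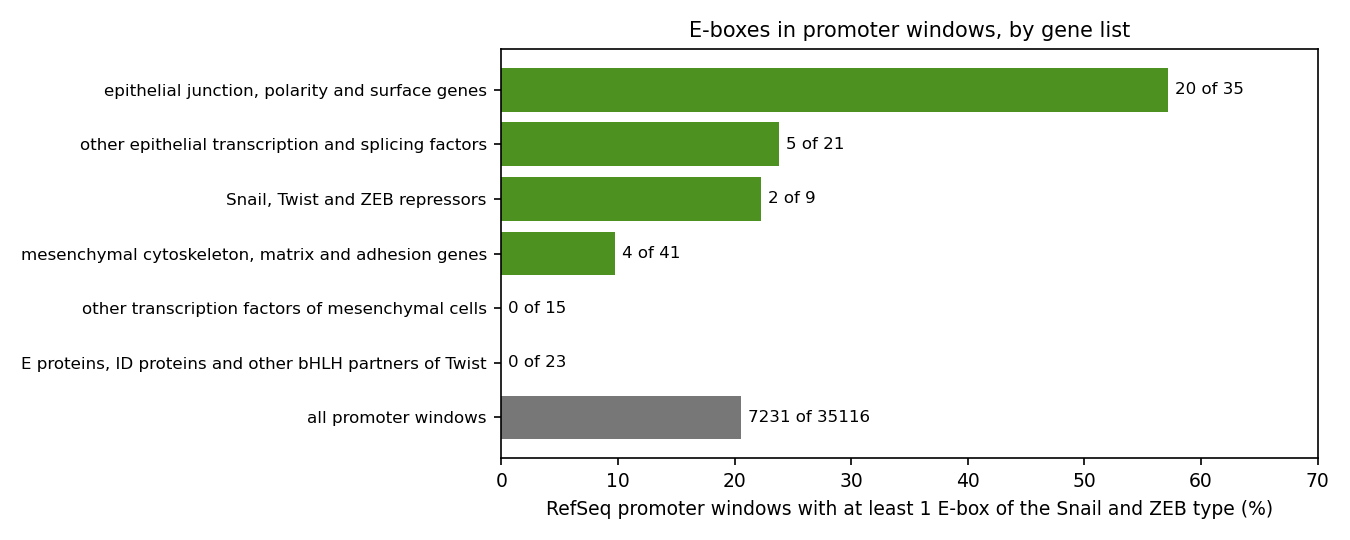
Share of 300-base RefSeq promoter windows that hold at least 1 E-box CACCTG or CAGGTG, by gene list and over all windows, in percent, with the counts beside each bar. The share is 57.1% in the epithelial junction list and 20.6% over all windows.

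Of 41 listed genes of the mesenchymal cytoskeleton, matrix and adhesion 35 were tested, of which 11 were higher, 8 were lower and 16 were not called in A2780-ADR cells (54.3% called, against 27.6% of all genes tested; median log2 fold change 0.33). VIM, which encodes the intermediate filament vimentin, was highly expressed in both lines, with 99115, 93833 and 107256 normalized counts in A2780-ADR samples and 50528, 50601 and 51453 in A2780 samples. The groups did not overlap, and the change stayed just below 2-fold (log2 fold change 0.97, SE 0.05, limma adjusted p = 7.31e-09). CDH2 (N-cadherin) had 0.946, 0 and 1.92 normalized counts in A2780-ADR samples, against 16.3, 14.3 and 17.9 in A2780 samples. Its mean was below the minimum for testing, and its 3 reads in A2780-ADR against 47 in A2780 gave a 16.9-fold ratio (exact 95% counting interval 5.43 to 84.7).

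The largest increases described were in CCN2, a matricellular protein (507 ± 56.3 normalized counts in A2780-ADR and 17.2 ± 5.21 in A2780, log2 fold change 4.84), the type I collagen chains COL1A2 (1049 ± 47.1 in A2780-ADR and 109 ± 13.2 in A2780, 3.26) and COL1A1 (3030 ± 115 in A2780-ADR and 351 ± 12.6 in A2780, 3.11), and S100A4, a calcium-binding protein of motile cells (26512 ± 1326 in A2780-ADR and 3537 ± 78.4 in A2780, 2.90; SD, n = 3 each). The largest decreases were in VCAN, the proteoglycan versican (81.0 ± 10.2 in A2780-ADR and 4940 ± 124 in A2780, -5.92), POSTN, periostin (1261 ± 144 in A2780-ADR and 15370 ± 383 in A2780, -3.61), TNC, tenascin C (13.4 ± 0.842 in A2780-ADR and 121 ± 10.5 in A2780, -3.08), and LOX, the lysyl oxidase that crosslinks collagen (78.8 ± 4.83 in A2780-ADR and 484 ± 20.9 in A2780, -2.60). Every one of these 8 had a limma adjusted p of 1.67e-08 or smaller. Matrix genes went both ways, with collagen I higher and versican and periostin lower in A2780-ADR.

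The signals that induce Snail, Twist and ZEB genes in many tissues, mainly TGF-beta and Notch, were represented by 19 genes, of which 18 were tested. The list, called inducers here, also holds SMAD7 and SKIL, which restrain TGF-beta signalling. Its count by direction is therefore no measure of the strength of the inducing signals. By limma 0 were called higher in A2780-ADR cells, 9 were called lower and 9 were not called (50% called, against 27.6% of all genes tested, of which 13.2% were higher and 14.4% lower; median log2 fold change -1.10). The count of genes called higher was 0 also with edgeR, with DESeq2 and at an unadjusted p under 0.05 with the same fold threshold. Below 2-fold, HIF1A (0.90) and FAM3C (0.65) were higher and 5 genes were lower with an adjusted p under 0.05. TGFBR3, the betaglycan co-receptor, had 28.4, 19.3 and 13.5 normalized counts in A2780-ADR samples, against 276, 297 and 278 in A2780 samples (-3.79, SE 0.22, limma adjusted p = 1.77e-08). JAG1, a Notch ligand, averaged 24.2 ± 4.61 in A2780-ADR and 247 ± 17.6 in A2780 (-3.31, SE 0.17, limma adjusted p = 4.81e-09).

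SMAD7, the inhibitory SMAD that TGF-beta itself induces, had 128, 109.8 and 102.0 normalized counts in A2780-ADR samples, against 749, 682 and 553 in A2780 samples (log2 fold change -2.53, SE 0.13, limma adjusted p = 3.76e-09). TGFB2, a ligand, averaged 13.7 ± 5.70 in A2780-ADR and 51.7 ± 9.14 in A2780 (-1.89, SE 0.29, limma adjusted p = 8.46e-05; SD, n = 3 each). The other 5 called lower were TGFBR2, SKIL, SMAD4, TGFB3 and TGFBR1, with log2 fold changes between -1.81 and -1.20. IL6 had no read in any sample.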

How the data were processed

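Total RNA of 3 A2780-ADR and 3 A2780 samples was extracted with a miRNeasy kit and sequenced from TruSeq Stranded mRNA libraries. The deposited signal values are read counts per gene that the authors normalized with DESeq. STAR, HTSeq and DESeq with the GRCh38 build are listed in the submitters' processing notes, and their versions, the gene annotation and the strandedness of counting are not given in the sources consulted. Nonzero values were whole multiples of a single read in 100% of cases (tolerance 0.01), which allowed the reads to be recovered. Most genes carry only an Ensembl identifier, and GENCODE release 29 named 57447 of them. The 0 columns left unassigned mean that every sample was used.

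Genes with a mean of at least 10 (17005) entered a limma 3.58.1 fit (R 4.3.3) of log2(normalized count + 1), and p-values were adjusted by Benjamini-Hochberg over all of them. Genes were called at an adjusted p under 0.05 with a difference above 2-fold. Fold changes on this scale understate the change of low genes. Family sums were compared by exact permutation tests. Counting intervals (95%, exact) and the limit of 3 reads for a count of 0 cover counting error only. Where that limit was used, the reads of the other line were taken as exact. Python 3.11.15 with numpy 2.4.6, pandas 2.3.3, scipy 1.17.1 and matplotlib 3.10.9 was used for levels, sequences and figures. The fit was tested on simulated data in which every changed gene differed by more than 2-fold and had reads in A2780. That test therefore does not speak to genes near the threshold or nearly silent in A2780.

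The members and gene lists were chosen with earlier results of these data known. Named genes are the 10 members and, in each list, at most the 4 most changed called genes per direction. CDH1, CDH2, VIM, EPCAM, TCF4, ESRP1 and ESRP2 are named whatever their values. Also named are the antisense transcripts of the members and the microRNA host transcripts. The 3 nearest profiles are those of the called members with the largest change in each direction. Other genes named were chosen after their values were seen, and 2 genes once on the lists are not reported here. Alternatives were pseudocounts of 0.5 and 5, no minimum, a mean of at least 50, TMM scaling, equal totals, the recovered reads in edgeR 4.0.16 (quasi-likelihood) and in DESeq2 1.42.0, a block for the replicate number, leaving out single samples, no fold threshold and the unadjusted p.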

Additional observations from a re-analysis of the deposited data

How the results depend on the processing

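SNAI2, TWIST2, TWIST1 and ZEB1 kept their direction and their calls under every alternative run, with log2 fold changes of 3.76 to 3.83 for SNAI2, 4.82 to 8.63 for TWIST2, -2.42 to -2.36 for TWIST1 and -1.65 to -1.54 for ZEB1. SNAI1 stayed below 2-fold throughout, at -0.71 to -0.48. The members called were 5 without the minimum, which added OVOL2, and 5 without the fold threshold, which added SNAI1. The sign of SNAI3 turned without A2780-ADR replicate 1 (-0.058), without A2780 replicate 2 (-0.00072) and without A2780 replicate 3 (-0.03), with a range of -0.058 to 0.29 over the 6 samples left out in turn, and SNAI3 drops out with a mean of at least 50. Depth limits ZEB2, GRHL2, OVOL1 and OVOL2, which had at most 8 reads in a line.

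Over all genes, 4688 were called. edgeR called 4748 and shared 4660 of these, DESeq2 called 4694 and shared 4649, a mean of at least 50 left 2955 calls and no fold threshold gave 12210. Without the fold threshold the calls were 18 among corepressors, 14 among stability regulators, 11 among bHLH partners, 32 among mesenchymal genes and 16 among inducers. The stability regulators fell to 1 call with a pseudocount of 5. With single samples left out, calls ranged from 4675 to 4749 over all genes, stayed at 4 among the members, at 2 among corepressors, at 3 among bHLH partners and at 4 among other mesenchymal factors, and ranged from 1 to 3 among stability regulators, 3 to 4 among other epithelial factors, 23 to 24 among epithelial junction genes, 19 to 20 among mesenchymal genes and 9 to 11 among inducers. The value of 1 came without A2780 replicate 2. The cause of these shifts was not tested, beyond the thresholds and sample numbers that the alternatives themselves change.

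For replicates 1, 2 and 3, the deviations of same-numbered samples from the means of their lines correlated at 0.004, -0.016 and 0.077. Such deviations also hold counting noise, so whether samples were paired by number cannot be told from these values. With the replicate number as a block, 4690 genes and 4 members were called, and 2 corepressors, 3 stability regulators, 3 bHLH partners, 4 other mesenchymal and 4 other epithelial factors, 24 epithelial junction genes, 19 mesenchymal genes and 9 inducers.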
